A study of Mus musculus with 18 samples.

Results

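The cadherins and non-clustered protocadherins of the developing mouse cortex were followed across 4 genotypes. Members were the protein-coding genes whose mouse symbol is exactly Cdh or Pcdh followed by a number, without Cdh5, the cadherin of blood vessel lining. The rule used names alone and no measured value. It found 33 genes, 22 Cdh and 11 Pcdh, among the 38355 genes of each count file, and 29 of them had enough reads to be tested. RNA came from dissected cortical tissue of C57BL/6 embryos at E12.5 (day of embryonic development), in 18 bulk libraries. There were 4 wild-type (WT) libraries, 5 libraries of Dmrt3-/- (Dmrt3 KO), 4 of Dmrt5-/- (Dmrt5 KO) and 5 of Dmrt3-/-;Dmrt5-/- (double KO) embryos. Dmrt3 and Dmrt5, whose current symbol is Dmrta2, encode transcription factors of the DMRT family that are known for their graded expression in the cortical primordium. The labels state neither which part of each gene was removed nor whether the libraries came from separate embryos. The p-values therefore weigh differences only against the scatter between these libraries, which may be technical.

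Cadherins are calcium-dependent adhesion proteins of the cell surface. Classical cadherins (type I and type II) bind catenins on the inside of the membrane and so connect to actin; cells that carry matching type I or type II members tend to adhere to one another, and in the embryonic forebrain members of both types are known for differing between neighbouring regions. Non-clustered protocadherins lack the catenin-binding tail. Their delta-1 and delta-2 groups differ in the number of extracellular repeats and in short conserved stretches of the cytoplasmic tail, and several delta-2 members bind the WAVE actin regulator.

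The genotypes were first checked by the targeted genes, in read counts normalised to the TMM-scaled library size (CPM). Dmrt3 ranged from 52.0 to 61.8 CPM in WT and from 30.3 to 48.5 CPM in the Dmrt5 KO, against 0.232 to 0.398 CPM in the Dmrt3 KO and 0 to 0.383 CPM in the double KO. Dmrta2 ranged from 159 to 220 CPM in WT and from 155 to 295 CPM in the Dmrt3 KO, against 4.31 to 25.1 CPM in the Dmrt5 KO and 1.66 to 4.90 CPM in the double KO. No library overlapped between carriers and non-carriers of either deletion. Total counts ran from 19602718 to 33072896 per library. The cortical marker Emx1 ranged from 113 to 180 CPM in WT and from 4.60 to 12.4 CPM in the double KO, so the tissue labelled as cortex in the double KO held little of this defining transcript.

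A pair of libraries stood apart on these long genes. The tested members have a median exon length of 7257 bases, against 4151 bases for all tested genes. Libraries differed in the slope of log2 CPM on log2 exon length, here called the gene length slope or length slope. The slope was 1.21 in double KO replicate 5 and 1.13 in WT replicate 4, the 2 steepest, and 0.692 in WT replicate 2, the lowest. The summed level of the 33 members was 1440 CPM in double KO replicate 5, 1250 CPM in WT replicate 4 and 591 CPM in WT replicate 2, which were also the highest and the lowest sums among the 18 libraries. Of the 29 tested members, 18 had their highest value of all libraries in double KO replicate 5 and 6 in WT replicate 4. Within WT, replicate 4 was highest for 22 members and replicate 2 was lowest for 18. The part of gene length in the results below was not tested beyond a fit with this slope as a covariate and a fit without the 2 steepest libraries, and both are given where they change a call.

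**Figure D1:**
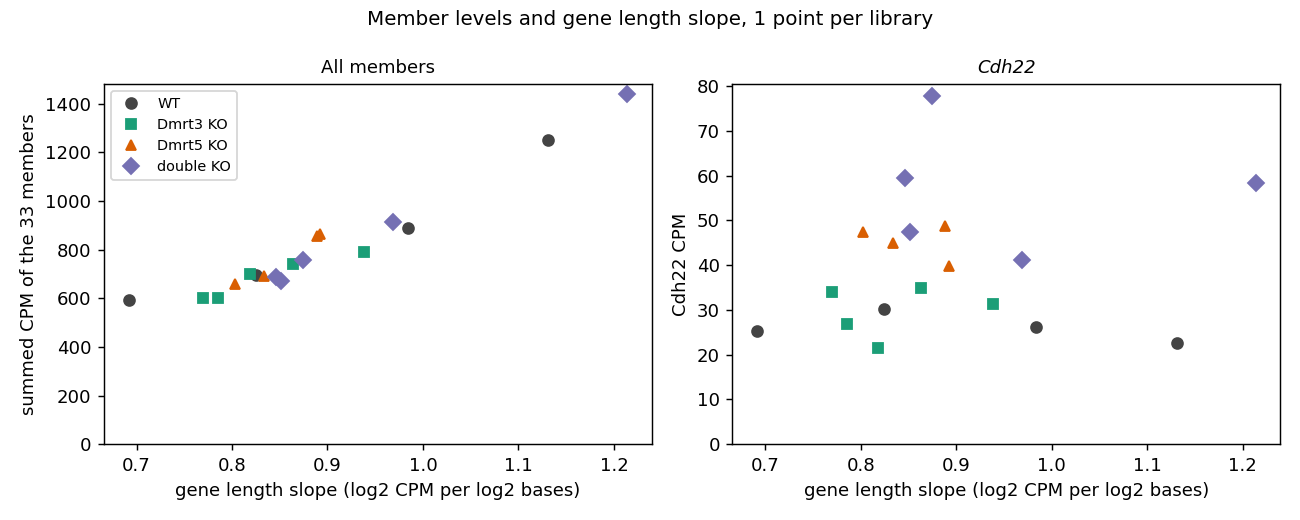
Summed CPM of the 33 members (left) and CPM of Cdh22 (right) on the y axes against the gene length slope of each library on the x axes, 1 point per library, with genotypes by colour and shape. The summed level is highest, at 1440 and 1250 CPM, in the 2 libraries with the steepest slope, whereas Cdh22 in those libraries was 58.3 and 22.5 CPM.

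In WT cortex the adhesion genes differed widely in level. On the scale per kilobase of exon (RPKM, computed from the counts), Cdh2, or N-cadherin, the main cadherin of neuroepithelial adherens junctions, was highest at 26.6 ± 14.8 RPKM (SD, n = 4). Cdh24, a type II member, followed at 17.6 ± 4.98 RPKM, and Pcdh18, a delta-2 protocadherin, at 11.3 ± 4.80 RPKM. Cdh4 (R-cadherin), Cdh11, Pcdh19, Cdh22, Pcdh1, Pcdh8 and Pcdh10 came next, from 11.2 down to 3.80 RPKM. The WT libraries of each of these genes overlapped with those of the next in this order, so neighbours were not separated beyond their spread. The first gap without overlap lay between Pcdh10, at 3.80 ± 0.920 RPKM, and Pcdh12, at 1.97 ± 0.189 RPKM. Cdh1 (E-cadherin), the cadherin of most other epithelia, was at 0.297 ± 0.0743 RPKM. At the bottom, 4 members failed the filter on low counts. Cdh19, known from Schwann cell precursors, reached at most 0.492 CPM, Cdh17 of intestine at most 0.309 CPM and Cdh26 at most 0.177 CPM. Cdh16 of kidney had 1 count in all 18 libraries.

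**Figure D2:**
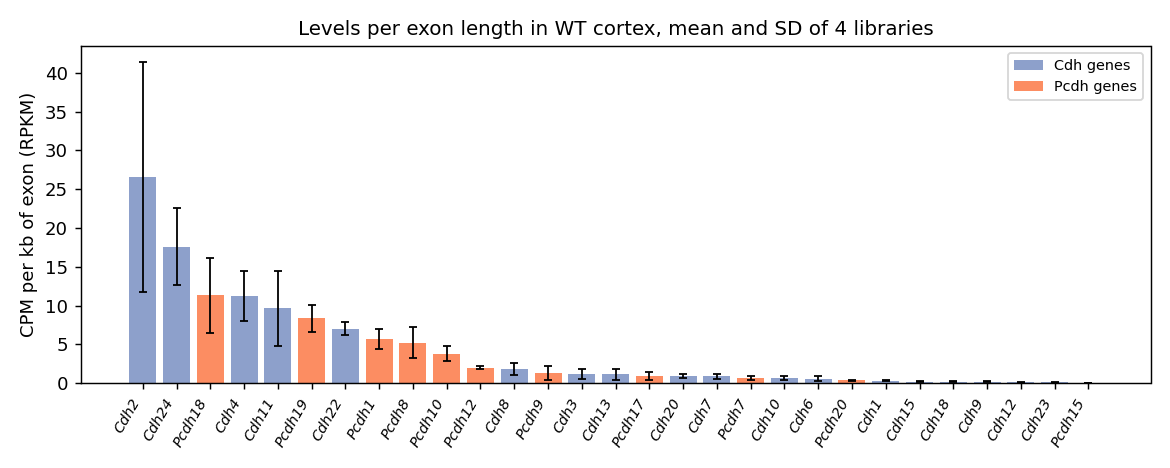
Mean level of the 29 tested members in WT cortex on the y axis, in CPM per kilobase of exon (RPKM), with genes in descending order on the x axis; bars are means, whiskers the SD of 4 libraries, and colours separate Cdh from Pcdh genes. Cdh2 stands highest at 26.6 RPKM and carries the widest whisker, 14.8 RPKM.

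A few members were higher in the Dmrt5 KO and in the double KO than in WT, and no member was called lower in the reported fit. Some alternative fits did call members lower in the double KO, as given in the closing section. Calls are from edgeR's quasi-likelihood test at an adjusted p (Benjamini-Hochberg over the 16236 tested genes) under 0.05. In the double KO against WT, 3 of 29 members rose, namely the type II cadherins Cdh22 and Cdh20 and the delta-2 protocadherin Pcdh8, where 2.42% of all tested genes rose. In the Dmrt5 KO, 1 member rose, Cdh22, against 0.339% of all genes. In the double KO against the Dmrt3 KO, 5 members rose, Cdh22, Cdh20, Cdh9, Pcdh8 and Pcdh10, against 1.74% of all genes. Because the control libraries are shared, these comparisons are not independent of one another. With the mesenchyme score of each library (mean log2 CPM of 13 mesenchyme markers) as a covariate, all 5 calls against the Dmrt3 KO were lost. The log2 difference was then 0.65 instead of 0.94 for Cdh22 (edgeR adjusted p = 0.0613), 0.95 instead of 1.07 for Cdh20 (0.0577), 1.17 instead of 1.32 for Cdh9 (0.114), 0.78 instead of 1.17 for Pcdh8 (0.309) and 0.36 instead of 0.70 for Pcdh10 (0.761). Against WT, with the same covariate, Cdh22 remained called in the Dmrt5 KO (log2 0.70, edgeR adjusted p = 0.0398) and in the double KO (log2 0.82, edgeR adjusted p = 0.0169), Cdh20 remained called in the double KO (log2 1.05, edgeR adjusted p = 0.0427), and Pcdh8 was not called (0.447). The score itself differed between genotypes, from 1.331 to 6.544 in the double KO and from 4.865 to 6.876 in the Dmrt3 KO. This covariate therefore cannot be fully told apart from genotype. In bulk tissue, fewer cells of a type and less RNA per cell cannot be told apart.

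No member passed the test in the remaining directions and comparisons. In the Dmrt3 KO against WT, 0 members were called higher or lower, against 0.00616% of all genes in each direction; 3 members (Cdh6, Cdh9 and Pcdh19) had an unadjusted p under 0.05, as did 7.16% of all genes, and DESeq2 called 0. In the Dmrt5 KO against WT, 0 members were lower, against 0.69% of all genes, with 2 at an unadjusted p under 0.05 (Pcdh18 and Pcdh19; 6.1% of all genes) and 0 by DESeq2. In the double KO against WT, 0 members were lower, against 3.81% of all genes, with 3 at an unadjusted p under 0.05 (Pcdh12, Pcdh18 and Pcdh19; 9.54% of all genes) and 1, Pcdh12, by DESeq2. Between the double KO and the Dmrt5 KO, 0 members were called, against 0.0123% of all genes higher and 0.32% lower; 2 members, Cdh7 and Cdh20, had an unadjusted p under 0.05, as did 4.71% of all genes, and DESeq2 called 0. In the double KO against the Dmrt3 KO, 0 members were lower, against 1.96% of all genes, with 0 at an unadjusted p under 0.05 (7.54% of all genes) and 0 by DESeq2.

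**Figure D3:**
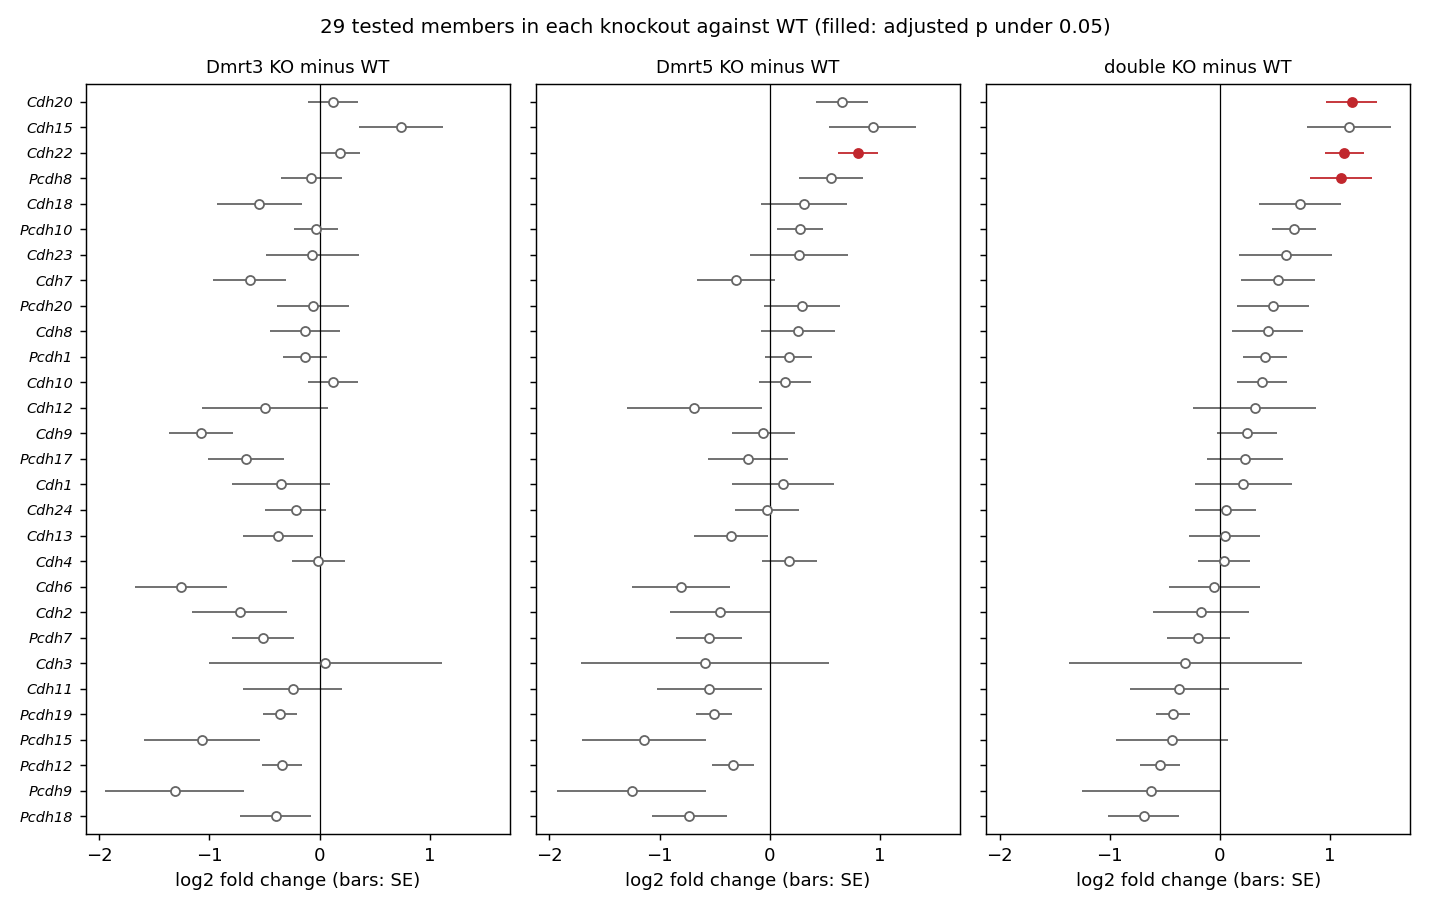
Log2 fold change against WT on the x axes for the 29 tested members (rows) in the Dmrt3 KO, Dmrt5 KO and double KO; points are fitted values, whiskers 1 SE, and filled points members with an adjusted p under 0.05. Filled points are absent in the Dmrt3 KO, mark Cdh22 in the Dmrt5 KO, and mark Cdh22, Cdh20 and Pcdh8 in the double KO.

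The stretches just before the start of the 3 members that rose in the double KO against WT are shown because these genes were called together. Sequences are from RefSeq (GRCm38.p6), written 5′ to 3′ on the strand of the gene, with CpG dinucleotides in capitals; each ends before the transcript start in both RefSeq and GENCODE.
Cdh22 (chr2:165234854-165234987, minus strand): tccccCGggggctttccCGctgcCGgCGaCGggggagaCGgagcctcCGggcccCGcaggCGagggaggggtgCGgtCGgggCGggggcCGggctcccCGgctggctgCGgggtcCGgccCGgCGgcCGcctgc
Cdh20 (chr1:104768270-104768519, plus strand): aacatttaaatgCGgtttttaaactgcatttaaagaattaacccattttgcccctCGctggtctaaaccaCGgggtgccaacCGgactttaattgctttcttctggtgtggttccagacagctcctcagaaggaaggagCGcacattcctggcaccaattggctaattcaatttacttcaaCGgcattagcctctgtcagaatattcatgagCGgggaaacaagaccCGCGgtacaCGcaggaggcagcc
Pcdh8 (chr14:79771313-79771562, minus strand): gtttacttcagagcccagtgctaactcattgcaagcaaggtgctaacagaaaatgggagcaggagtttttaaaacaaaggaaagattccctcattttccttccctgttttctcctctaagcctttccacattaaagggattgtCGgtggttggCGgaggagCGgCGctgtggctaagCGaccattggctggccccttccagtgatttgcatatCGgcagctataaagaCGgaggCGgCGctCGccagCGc
RefSeq windows of 300 bases (250 before and 50 after the start) were at hand for 22 of the 33 members. The Cdh22 window held 38 CpG, more than 95% of the 32851 windows of all genes, against 18 in Cdh20 and 14 in Pcdh8. The median was 7 over all windows and 14 over the 25 windows of members. The uncalled Cdh24 held 30, so a high CpG count is not particular to the called members. The 7 letters ACANTGT, which both strands read alike and which are the core of the DMRT consensus, occurred in none of these 3 windows; among the members only Cdh9 held them, 27 bases after its start, and 7.54% of all windows did. A match is a description of letters and not a binding site.

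Among the 5 type I classical cadherins, 0 were called in any of the 6 comparisons (edgeR's quasi-likelihood test, adjusted p under 0.05). Of their 30 tests, 2 had an unadjusted p under 0.05, and DESeq2 called 1; both were for Cdh15. Cdh2, at the centre of the neuroepithelial junction, was at 263, 98.9, 137 and 360 CPM in WT, at 83.5, 95.6, 163, 190 and 118 CPM in the Dmrt3 KO, at 112, 132, 195 and 190 CPM in the Dmrt5 KO and at 94.1, 116, 114, 203 and 425 CPM in the double KO. Its range within WT spanned 3.64-fold and that within the double KO 4.52-fold, and all genotypes overlapped. The highest value of each genotype lay in the library with the steepest length slope, which also held for Pcdh9 and Pcdh19 and no other member. The log2 difference of Cdh2 between double KO and WT was -0.17 ± 0.43 (SE; edgeR adjusted p = 0.932). With the length slope as a covariate it was -0.46 (edgeR adjusted p = 0.014), while without the 2 steepest libraries it was -0.31 (edgeR adjusted p = 0.797). Cdh4, known for its expression in the cortical rather than the striatal primordium, averaged 81.3 ± 23.4 CPM in WT (SD, n = 4) and 83.3 ± 32.1 CPM in the double KO (SD, n = 5), a log2 difference of 0.03 ± 0.24 (SE).

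Cdh3 (P-cadherin) varied most within a genotype. It was at 0.489, 0.776, 1.11, 17.3 and 0.234 CPM in the double KO, at 3.99, 1.10, 3.72, 1.78 and 15.2 CPM in the Dmrt3 KO and at 1.53, 1.24, 9.49 and 0.960 CPM in the Dmrt5 KO, so that 1 library stood high in each. WT was at 2.38, 7.47, 2.75 and 7.29 CPM. The high libraries, double KO replicate 4, Dmrt3 KO replicate 5 and Dmrt5 KO replicate 4, were in each case the library of that genotype with the highest summed mesenchyme markers, a list of 13 genes such as collagens. Without double KO replicate 4, Cdh3 was called lower in the double KO against WT (edgeR adjusted p = 0.0431) and against the Dmrt3 KO (edgeR adjusted p = 0.0447). Cdh15 (M-cadherin, named for muscle) ranged from 0.437 to 0.719 CPM in WT, from 0.813 to 1.55 CPM in the Dmrt3 KO, from 0.757 to 1.91 CPM in the Dmrt5 KO and from 0.554 to 2.20 CPM in the double KO. Both single KOs lay above WT in all libraries, and the double KO overlapped with it. Its log2 difference was 0.74 ± 0.38 in the Dmrt3 KO (edgeR adjusted p = 0.65), 0.93 ± 0.40 in the Dmrt5 KO (edgeR adjusted p = 0.371) and 1.17 ± 0.38 in the double KO (edgeR adjusted p = 0.0845; DESeq2 adjusted p = 0.0405), each against WT; with the length slope as a covariate the last was 1.18 and called (edgeR adjusted p = 0.0276).

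Type II cadherins, the largest class, held most of the calls, with 6 in 66 tests, beside 3 in 30 for the delta-2 protocadherins. Of the 12 members of this class 11 were tested. Of these, 1 rose in the Dmrt5 KO, where 0.339% of all genes did. In the double KO 2 rose against WT (2.42% of all genes) and 3 against the Dmrt3 KO (1.74%). Their median log2 difference was -0.03 in the Dmrt5 KO, 0.38 in the double KO against WT and 0.94 in the double KO against the Dmrt3 KO, beside -0.02, 0.01 and 0.01 over all genes.

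Cdh22, known as pituitary and brain cadherin, was at 26.1, 25.3, 30.1 and 22.5 CPM in WT and at 33.9, 26.8, 34.8, 31.4 and 21.4 CPM in the Dmrt3 KO. It was at 47.4, 45.0, 39.7 and 48.8 CPM in the Dmrt5 KO and at 47.3, 77.7, 59.5, 41.1 and 58.3 CPM in the double KO. Every library without Dmrt5 lay above every library with it, whether or not Dmrt3 was present, and the other contrasts overlapped. The mean rose from 26.0 ± 3.16 CPM in WT (SD, n = 4) to 45.2 ± 4.02 CPM in the Dmrt5 KO (SD, n = 4), 1.74-fold, with a log2 difference of 0.80 ± 0.18 (SE; edgeR adjusted p = 0.0428). This call sat at the threshold: it was lost when any 1 of the 8 libraries was left out (edgeR adjusted p from 0.0607 to 0.17, log2 from 0.73 to 0.86) and without the 2 steepest libraries (0.142, log2 0.74). It held with DESeq2 (adjusted p = 0.00237), and in edgeR with the length slope (adjusted p = 0.0225), the replicate block (0.0287) and the mesenchyme score (0.0398). With both factors deleted it rose 2.18-fold over WT, to 56.8 ± 14.0 CPM (SD, n = 5), log2 1.13 ± 0.18 (SE; edgeR adjusted p = 0.000666), and this call held in all 9 fits that left out 1 library. Against the Dmrt3 KO it rose 1.91-fold (log2 0.94 ± 0.16, SE; edgeR adjusted p = 0.00217). Between the double KO and the Dmrt5 KO the log2 difference was 0.33, with an interval of 2 SE from -0.02 to 0.67 (edgeR adjusted p = 0.997).

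Cdh20, a type II cadherin of the developing nervous system, was low in all genotypes. It was at 4.23, 3.10, 2.67 and 4.72 CPM in WT, at 3.86, 5.17, 4.49, 3.70 and 2.85 CPM in the Dmrt3 KO, at 4.99, 4.98, 5.70 and 7.59 CPM in the Dmrt5 KO and at 7.92, 7.90, 6.23, 8.69 and 11.5 CPM in the double KO. All libraries of the double KO lay above those of WT and the Dmrt3 KO, and the Dmrt5 KO lay above WT. The double KO mean of 8.45 ± 1.93 CPM (SD, n = 5) was 2.29-fold that of WT, 3.68 ± 0.957 CPM (SD, n = 4), with a log2 difference of 1.19 ± 0.23 (SE; edgeR adjusted p = 0.00346). Against the Dmrt3 KO the log2 difference was 1.07 ± 0.21 (SE; edgeR adjusted p = 0.006). The Dmrt5 KO alone differed from WT by 0.66 ± 0.24 on the log2 scale and was not called (edgeR adjusted p = 0.265); with the length slope as a covariate it was 0.77 and called (edgeR adjusted p = 0.0319).

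Cdh9, known from synapses of the hippocampus, was near the low end. It was at 0.772, 0.480, 0.381 and 0.666 CPM in WT, at 0.219, 0.265, 0.232, 0.343 and 0.302 CPM in the Dmrt3 KO, at 0.297, 0.622, 0.598 and 0.690 CPM in the Dmrt5 KO and at 0.587, 0.685, 0.801, 0.554 and 0.819 CPM in the double KO. The Dmrt3 KO libraries lay below all of WT and all of the double KO. The double KO was 2.50-fold above the Dmrt3 KO, with a log2 difference of 1.32 ± 0.28 (SE; edgeR adjusted p = 0.00894). The Dmrt3 KO differed from WT by -1.08 ± 0.29 on the log2 scale and was not called (edgeR adjusted p = 0.31). With a total of 236 counts in the 18 libraries, counting error weighs on each value.

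**Figure D4:**
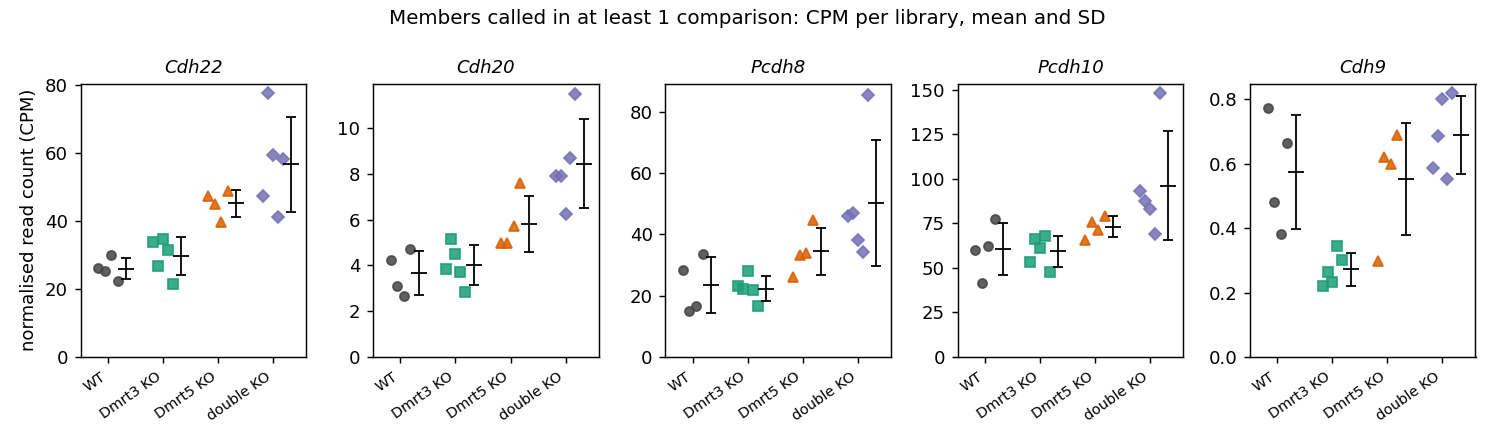
Normalised read count (CPM, y axes from 0) of the 5 members called in at least 1 comparison, by genotype on the x axes; points are libraries, and the bars beside them the mean and SD. Cdh22 in the Dmrt5 KO and double KO lies at 39.7 CPM or more in every library. Pcdh8 and Pcdh10 are each highest in double KO replicate 5, at 85.6 and 148 CPM.

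Further type II members differed without a call. Cdh6, known for its expression in the striatal primordium, was at 2.49, 3.58, 7.07 and 7.47 CPM in WT and 2.24, 2.34, 2.21, 2.40 and 1.59 CPM in the Dmrt3 KO, which did not overlap (log2 -1.26 ± 0.42, SE; edgeR adjusted p = 0.505). Against the Dmrt3 KO, the double KO differed in Cdh6 by 1.21 ± 0.40 on the log2 scale (edgeR adjusted p = 0.124), in Cdh7 by 1.16 ± 0.32 (0.0519) and in Cdh18 by 1.27 ± 0.36 (0.0603), and DESeq2 called all 3 (adjusted p = 0.0453, 0.00788 and 0.0199). Cdh7 was also called by edgeR with the length slope as a covariate (log2 0.65, adjusted p = 0.0305) and with the replicate block (log2 1.08, adjusted p = 0.0115). Against the Dmrt5 KO it differed in Cdh7 by 0.83 ± 0.34 (edgeR adjusted p = 0.835) and in Cdh20 by 0.54 ± 0.22 (0.868). The double KO values of Cdh6, 2.54, 2.74, 3.34, 3.96 and 12.2 CPM, and of Cdh7, 9.44, 7.03, 9.34, 11.3 and 24.9 CPM, had their highest in replicate 5, the library with the steepest length slope. Cdh24, the most abundant of the class per exon length, had a mean of 61.4 ± 17.4 CPM in WT (SD, n = 4) and of 63.7 ± 25.7 CPM in the double KO (SD, n = 5), log2 0.05 ± 0.28 (SE). Cdh8, Cdh10 and Cdh12 were not called in any comparison by edgeR or DESeq2, with no unadjusted p under 0.05.

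Cdh11, known as the cadherin of mesenchymal cells, was at 61.4, 75.7, 55.9 and 149 CPM in WT, at 44.4, 46.9, 63.8, 64.2 and 142 CPM in the Dmrt3 KO, at 42.3, 45.2, 101 and 45.9 CPM in the Dmrt5 KO and at 44.3, 36.7, 37.0, 143 and 70.7 CPM in the double KO. In each genotype the highest value lay in the library with the most mesenchyme marker RNA, as it did for Pcdh18 and for no other member. The summed CPM of the 13 markers ranged from 898 to 2770 in WT, from 663 to 3050 in the Dmrt3 KO, from 498 to 1940 in the Dmrt5 KO and from 91.5 to 2380 in the double KO, with medians of 1320, 1160, 677 and 214, and no marker was at 0 throughout a genotype. The log2 difference of Cdh11 between double KO and WT was -0.37 (edgeR adjusted p = 0.803) and 0.36 with the mesenchyme score as a covariate (0.984), so its sign turned.

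**Figure D5:**
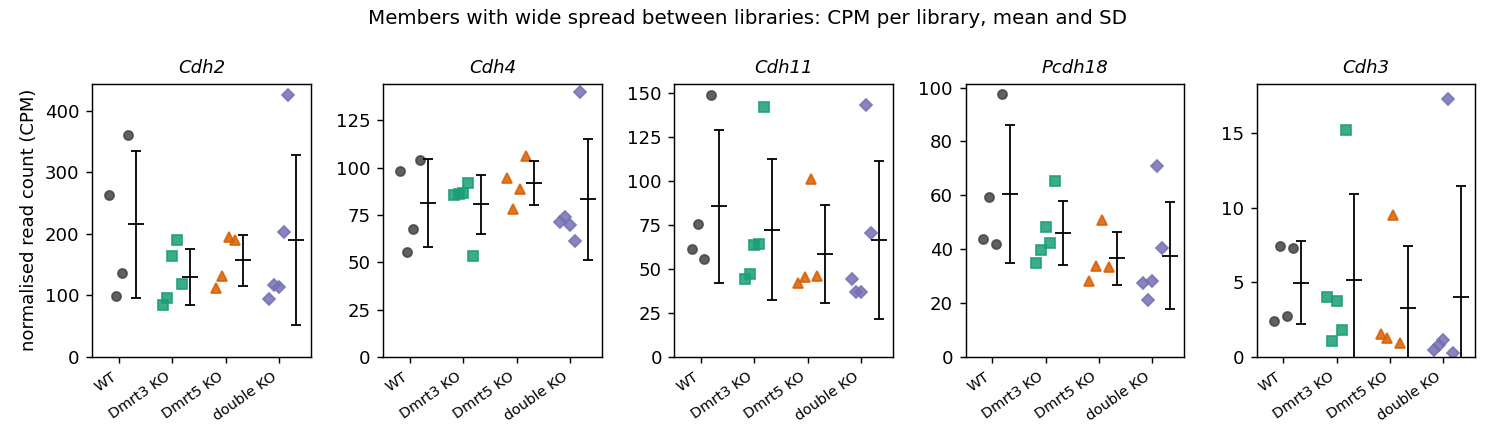
Normalised read count (CPM, y axes from 0) by genotype on the x axes for Cdh2, Cdh4, Cdh11, Pcdh18 and Cdh3; points are libraries, and the bars beside them the mean and SD, cut at 0 where the SD exceeds the mean. Single libraries stand out within genotypes, such as 425 CPM of Cdh2 and 17.3 CPM of Cdh3 in the double KO.

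Of the 5 cadherins outside both classes, Cdh13 (T-cadherin, which lacks a cytoplasmic tail) and Cdh23 (a tip-link protein of hair cells) were tested, and 0 of their 12 tests gave a call by edgeR or DESeq2 or an unadjusted p under 0.05. Cdh13 ranged from 4.11 to 22.2 CPM in WT, which held both its lowest and its highest library. Cdh23 ranged from 0.267 to 1.88 CPM in WT and from 1.32 to 2.85 CPM in the double KO.

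The 3 delta-1 protocadherins, Pcdh1, Pcdh7 and Pcdh9, were not called in any comparison by edgeR or DESeq2, and 3 of their 18 tests had an unadjusted p under 0.05. Pcdh1 was at 62.9, 76.4, 50.1, 46.3 and 93.8 CPM in the double KO and between 37.1 and 51.6 CPM in the Dmrt3 KO (log2 0.54 ± 0.19, SE; edgeR adjusted p = 0.148). Pcdh9 was at 9.10, 1.92, 7.70 and 17.2 CPM in WT, a spread wider than its differences between genotypes; its log2 difference between double KO and WT was -0.62 (edgeR adjusted p = 0.735), or -1.21 and called with the length slope as a covariate (0.00157). Pcdh7 shares 21.1% of its exon length with a gene on the other strand, 4932441J04Rik, whose total of 80 counts was small beside the 2706 counts of Pcdh7, and the library kit does not mark strand.

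Among the 5 delta-2 protocadherins, Pcdh8 and Pcdh10 were called. Pcdh8, known as a regulator of cell sorting in the early embryo and of synapses later, was at 28.4, 15.0, 16.6 and 33.7 CPM in WT, at 23.1, 22.0, 28.0, 21.9 and 16.6 CPM in the Dmrt3 KO, at 26.0, 33.4, 33.9 and 44.7 CPM in the Dmrt5 KO and at 46.1, 47.1, 38.1, 34.2 and 85.6 CPM in the double KO. The double KO lay above WT and the Dmrt3 KO in all libraries, the nearest being 34.2 against 33.7 CPM, and overlapped with the Dmrt5 KO. The Dmrt5 KO differed from WT by 0.55 on the log2 scale (edgeR adjusted p = 0.503), or by 0.77 and called with the length slope as a covariate (0.026). In the double KO it rose 2.14-fold over WT, from 23.5 ± 9.09 CPM (SD, n = 4) to 50.2 ± 20.5 CPM (SD, n = 5), log2 1.10 ± 0.28 (SE; edgeR adjusted p = 0.0246), and 2.25-fold over the Dmrt3 KO, log2 1.17 ± 0.26 (SE; edgeR adjusted p = 0.0151). The call against WT was lost without WT replicate 2 (edgeR adjusted p = 0.0789), WT replicate 3 (0.0994) or double KO replicate 5 (0.0554). With the mesenchyme score as a covariate the log2 difference was 0.66 (edgeR adjusted p = 0.447); without the 2 steepest libraries it was 1.07 (0.014).

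Pcdh10, known for its part in the growth of striatal axons, was at 60.1, 41.7, 62.3 and 77.4 CPM in WT, at 53.3, 66.1, 61.3, 67.9 and 47.4 CPM in the Dmrt3 KO, at 65.7, 75.7, 71.4 and 79.2 CPM in the Dmrt5 KO and at 93.1, 87.2, 82.8, 69.2 and 148 CPM in the double KO. The double KO did not overlap with the Dmrt3 KO and overlapped with WT through 1 library of each. It rose 1.62-fold over the Dmrt3 KO, from 59.2 ± 8.70 CPM to 96.1 ± 30.5 CPM (SD, n = 5 each), log2 0.70 ± 0.19 (SE; edgeR adjusted p = 0.0449). That call was lost in 9 of the 10 fits that left out 1 library, with edgeR adjusted p up to 0.129 and log2 differences from 0.49 to 0.80, and without the 2 steepest libraries (0.0585, log2 0.50). Against WT the log2 difference was 0.67 ± 0.20 (SE; edgeR adjusted p = 0.0568; DESeq2 adjusted p = 0.0175). It was 0.59 in the length slope fit and 0.63 without the 2 steepest libraries, and edgeR called it in both (adjusted p = 0.00472 and 0.0293).

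Pcdh17, Pcdh18 and Pcdh19 were not called. Pcdh19, whose human counterpart is mutated in an epilepsy of girls, was at 69.0, 78.4, 91.3 and 111 CPM in WT and at 55.3, 65.5, 65.7 and 59.5 CPM in the Dmrt5 KO, which did not overlap. Its log2 difference from WT was -0.36 ± 0.15 in the Dmrt3 KO, -0.51 ± 0.16 in the Dmrt5 KO and -0.43 ± 0.15 in the double KO (edgeR adjusted p = 0.65, 0.205 and 0.128); the last was -0.49 and called in the length slope fit (0.00717). Pcdh18 differed from WT by -0.73 ± 0.34 in the Dmrt5 KO (edgeR adjusted p = 0.436) and by -0.69 ± 0.32 in the double KO (0.271), or by -0.55 and -0.20 with the mesenchyme score as a covariate (0.497 and 1.0). Pcdh17, known from synapses between cortex and basal ganglia, did not overlap between the double KO, 10.5 to 29.4 CPM, and the Dmrt3 KO, 5.35 to 9.90 CPM, and was not called (log2 0.89 ± 0.33, SE; edgeR adjusted p = 0.173).

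Among the remaining protocadherins, Pcdh12, a protein of endothelial cells, was at 12.6, 11.5, 10.5 and 13.1 CPM in WT and at 6.55, 7.76, 6.90, 12.4 and 7.25 CPM in the double KO. Its value of 12.4 CPM came from replicate 4, and the other 4 double KO libraries lay below WT. The log2 difference was -0.55 ± 0.18 (SE; edgeR adjusted p = 0.0911), and it was called by DESeq2 (adjusted p = 0.0436) and by edgeR in the length slope fit (0.0282) and without replicate 4 (0.00339). Summed endothelial markers (10 genes) ranged from 335 to 404 CPM in WT and from 171 to 416 CPM in the double KO, with the highest value again in replicate 4; their part in the level of Pcdh12 was not tested. Pcdh15 and Pcdh20 were not called in any comparison by edgeR or DESeq2, and the interaction for Pcdh15 alone had an unadjusted p under 0.05.

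Members were also counted by non-overlap of libraries. In the Dmrt3 KO against WT, 1 member lay higher in every library (Cdh15; 0.696% of all genes) and 2 lower (Cdh6 and Cdh9; 1.67%). In the Dmrt5 KO, 3 lay higher (Cdh15, Cdh20 and Cdh22; 4.39%) and 1 lower (Pcdh19; 4.34%). The double KO had 3 members above WT (Pcdh8, Cdh20 and Cdh22; 2.57%) and 0 lower (3.4%). Against the Dmrt3 KO, 7 lay higher in the double KO (Cdh6, Cdh9, Cdh20, Cdh22, Pcdh8, Pcdh10 and Pcdh17; 2.29%) and 0 lower (2.51%), and against the Dmrt5 KO 0 lay higher (0.407%) or lower (1.37%).

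The interaction, the double KO minus both single KOs plus WT on the log2 scale, asks whether the joint loss differs from the sum of the single losses. Of the 29 members, 0 were called, against 0.0% of all genes higher and 0.142% lower. There were 7 members with an unadjusted p under 0.05, all positive, against 9.22% of all genes in either direction, and DESeq2 called 0. They were Cdh6 (2.01 ± 0.60, SE), Pcdh9 (1.94 ± 0.90), Pcdh15 (1.77 ± 0.76), Cdh7 (1.47 ± 0.47), Cdh9 (1.38 ± 0.40), Pcdh17 (1.09 ± 0.49) and Pcdh7 (0.87 ± 0.40), with edgeR adjusted p from 0.308 to 0.536. The median interaction over the members was 0.43, beside -0.01 over all genes, and 0.08 once the length slope entered as a covariate. The members' median in the Dmrt3 KO against WT likewise was -0.34 without and -0.004 with that covariate. For the double KO against WT it was 0.23 without and 0.12 with it. Without the 2 steepest libraries the medians were 0.189 for the interaction, -0.039 for the Dmrt3 KO and 0.275 for the double KO, the last 2 against WT. The double KO median thus moved up in that fit and down with the length covariate. With the mesenchyme score as a covariate the 3 medians were 0.662, -0.291 and 0.047. What lies behind these shifts was not tested.

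Markers of brain regions also differed between the genotypes in which members were called. Of 13 markers of the lateral ganglionic eminence, the striatal primordium, 6 rose in the Dmrt5 KO against WT (0.339% of all genes), 11 in the double KO against WT (2.42%) and 11 in the double KO against the Dmrt3 KO (1.74%), and 0 fell. Their summed level ranged from 1110 to 1510 CPM in WT, from 1170 to 1730 CPM in the Dmrt3 KO, from 2000 to 2430 CPM in the Dmrt5 KO and from 2140 to 3640 CPM in the double KO. Of 5 markers of the medial ganglionic eminence, 4 rose in the double KO against WT and 4 against the Dmrt3 KO, and the summed level ranged from 136 to 229 CPM in WT and from 314 to 718 CPM in the double KO. Many cortical markers fell in the double KO against WT, where 3.81% of all genes did. These were 7 of 9 of the cortical hem, 6 of 8 of pallial progenitors (1, Pax6, rose) and 6 of 8 of the glutamatergic lineage. Markers of Cajal-Retzius neurons were mixed: of 7, 2 fell (Trp73 and Ebf2) and 1 rose (Lhx5). Of 6 antihem markers 1 rose and 1 fell, and of 8 diencephalon markers 1 rose. The part of these markers in the members' differences was not tested.

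The partners of cadherins inside and beside the membrane showed few calls. Of 11 tested catenins and other cytoplasmic partners, 5 nectins, 9 subunits of the WAVE complex, 5 genes of a list of calsyntenins, desmosomal cadherins and the protocadherin Pcdh11x, 5 repressors of Cdh1 and 21 clustered protocadherins, 0 were called in any of the 6 comparisons (edgeR's quasi-likelihood test, adjusted p under 0.05). Of their 336 tests, 29 had an unadjusted p under 0.05, and DESeq2 called 3. Over all genes, 7.16% had an unadjusted p under 0.05 in the Dmrt3 KO against WT and 9.22% in the interaction. Between the double KO and the Dmrt5 KO the share was 4.71%. Calls in 1 direction ran from 0.0 to 3.81% of all genes, so few calls are not particular to these lists. The plakoglobin gene Jup, the catenin-list gene with the lowest p in the double KO, differed from WT by 0.23 ± 0.09 on the log2 scale (edgeR adjusted p = 0.175). Among 7 tested Fat, Dachsous and Celsr cadherins, which act in planar cell polarity, 1 fell. Of all genes, 3.81% fell in the double KO against WT and 1.96% against the Dmrt3 KO. Celsr1 averaged 169 ± 69.1 CPM in WT (SD, n = 4), 130 ± 24.4 CPM in the Dmrt3 KO (SD, n = 5), 95.3 ± 11.1 CPM in the Dmrt5 KO (SD, n = 4) and 64.9 ± 21.9 CPM in the double KO (SD, n = 5). It fell in the double KO against WT, log2 -1.38 ± 0.26 (SE; edgeR adjusted p = 0.00286), and against the Dmrt3 KO, log2 -0.997 ± 0.245 (SE; edgeR adjusted p = 0.0281).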

How the data were processed

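RNA was measured in 18 bulk libraries. The deposited files hold whole-number read counts per Ensembl gene, without normalisation by the authors. The submitters' processing notes name STAR 2.3.0e and featureCounts 1.4.6-p1 with the build mm10, and list CASAVA 1.8.2, bcl2fastq, FastQC 0.10.1 and DESeq2 1.8.2 as further tools. Annotation release, strand setting and treatment of multiply matching reads were not given in the sources used here. The labels' protocols name RNeasy columns and the TruSeq RNA Sample Prep Kit v2, which does not mark strand. The 5 summary entries of each file were 0.

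Symbols, exon lengths and coordinates came from GENCODE M21 (GRCm38), which matched 36602 of 38355 identifiers; the rest held 0.397% of counts. For the analysis in edgeR 4.0.16 (R 4.3.3), filterByExpr left 16236 genes and libraries were scaled by TMM. The quasi-likelihood fit took all 18 libraries, with 1 coefficient for each genotype. Tests were two-sided, adjusted by Benjamini-Hochberg over all tested genes, with calls under 0.05. The SE is the log2 fold change divided by the root of F. CPM and RPKM were computed here from the deposited counts. Members called in a comparison are given in full, the 3 highest in WT and those with an unadjusted p under 0.05 by value, and the others by counts and ranges. Members and lists were chosen with earlier results of these data known.

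The fit was tested on simulated data with known fold changes before use. Each knockout had 50 changed genes at each fold, and no differences in length slope or mesenchyme content between libraries were simulated. Against WT it called 10 to 18% of the 1.5-fold changes, 38 to 48% of the 2-fold and 78 to 80% of the 3-fold. A member without a call may therefore still differ by such folds. The shares belong to the simulated setting and may differ in the real libraries. Alternatives were DESeq2 1.42.0, its size factors, no filter, a replicate block, covariates, 2 genotypes only and each library left out.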

Additional observations from a re-analysis of the deposited data

Results flagged for a closer look

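Pcdh8 in double KO replicate 5, at 85.6 CPM, stood far from the other 4 libraries of its genotype, which ranged from 34.2 to 47.1 CPM. That library also had the steepest gene length slope, 1.21, and the lowest mesenchyme score, 1.33 (mean log2 CPM of 13 markers). Their part in its Pcdh8 level was not tested. Over all 29 tested members and 4 genotypes, 16 of 116 groups had 1 such distant library (13.8%). About 1 in 20 would be flagged among independent, normally distributed values. The members were read in the same libraries and are not independent, so the shares cannot be compared. The distant library was double KO replicate 5 for 7 of the 16, Dmrt3 KO replicate 5 for 4, double KO replicate 4 for 3 and Dmrt5 KO replicate 4 for 2. As a share of the range within the genotype, the gap of Pcdh8 was the smallest of the 16, at 0.749. The largest, 0.96, was that of Pcdh17 in the same library.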

How the results depend on the processing

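Across the alternatives run, 197 counts of called members stayed within 1.5 times the reported count and 23 moved. Most of the counts that stayed were 0 in the reported fit and 0 again, so they say little about how stable the calls are. No fold change of a called member changed sign. Of the values of called members, 124 kept the call and 33 lost it, and the cause was not tested. Members higher in the Dmrt5 KO against WT numbered 1, but 0 with no low count filter, 3 with the length slope as a covariate, 0 without the 2 steepest libraries (a setting chosen after seeing the data) and 0 to 0 with each library left out. Members higher in the double KO against WT numbered 3, but 5 with the length slope, 5 with DESeq2 and 2 to 5 with each library left out, 5 of them without double KO replicate 4. Members lower numbered 0, but 4 with the length slope (Cdh2, Pcdh9, Pcdh12 and Pcdh19), 1 with DESeq2 (Pcdh12) and 0 to 3 with each library left out: 3 without double KO replicate 4 (Cdh3, Pcdh12 and Pcdh18) and 1 without replicate 5 (Pcdh19). Members higher in the double KO against the Dmrt3 KO numbered 5, but 0 with the mesenchyme score as a covariate, 8 with DESeq2 and 4 to 8 with each library left out, 8 without double KO replicate 4. Members lower there numbered 0, and 0 to 1 with each library left out (Cdh3 without double KO replicate 4).

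With the replicate number as a block, members lower in the double KO against WT numbered 3 (Pcdh12, Pcdh18 and Pcdh19), members higher 2, Pcdh8 lost its call against WT (edgeR adjusted p = 0.0558), and Pcdh10 lost its call against the Dmrt3 KO (edgeR adjusted p = 0.0801) while Cdh7 gained one (0.0115). Shared numbers were not taken as pairs in the reported fit, by a rule that every same-numbered pair should correlate over 0.1. Correlations of 24 such pairs ran from -0.357 to 0.703, with 15 of them over 0.1. Their median was 0.24, against -0.14 for other pairs, and 4 of 18 libraries were closest to one of their own number. Pairs that share structure may fail such a rule through noise, so it cannot decide whether the numbers mark a batch. The calls that change with the block therefore depend on this choice. Members under 1 CPM, such as Cdh9, are limited by depth.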
